A study of Mus musculus with 13 samples.

Results

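The migration and egress genes of the thymocyte are the chemokine receptors Ccr7, Ccr9, Ccr4 and Cxcr4, the sphingosine 1-phosphate receptor S1pr1, the surface proteins Cd44 and Cd69, the transcription factor Klf2 and the IL-7 receptor chain Il7r. These 9 genes were picked by symbol, and all 9 were found among the 17849 genes of the RNA-seq table. The study set sorted CD4+CD8+ double-positive thymocytes of mice with the genotype Rad21 KO against wild type cells of the same stage, to ask what the loss of cohesin does to transcription. Gene expression was measured by ribosome-depleted RNA-seq in 2 Rad21 KO libraries and 2 wild type libraries. The labels of these 4 libraries give no strain, age, sex or deletion strategy, and do not say whether libraries came from separate animals, so each p-value measures the spread between libraries, which may be technical.

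Developing T cells move through the thymus by chemokine gradients. CXCR4 and CCR9 help keep immature thymocytes in the cortex, through CXCL12 and CCL25. After positive selection, CCR4 and CCR7 draw cells toward ligands made in the medulla. Mature cells leave when S1PR1 senses sphingosine 1-phosphate in the blood, a step that KLF2 turns on by activating the S1pr1 gene and that CD69 blocks by pulling the S1PR1 protein from the cell surface.

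Rad21 RNA was lower in both knockout libraries. Rad21, a subunit of the cohesin ring, stood at 67.9 and 65.7 CPM (counts scaled to a common library size with TMM factors) in the Rad21 KO libraries, against 271 and 233 CPM in the wild type libraries. The log2 fold change was -1.91 (SE 0.12, edgeR quasi-likelihood adjusted p = 0.000862). Library totals ran from 6914654 to 9384505 counts in Rad21 KO and from 6500819 to 6633506 in wild type. Lars2, the gene of the mitochondrial leucyl-tRNA synthetase, made up 33.7% of Rad21 KO replicate 1 and 12.5% of Rad21 KO replicate 2, against 5.78% and 7.37% of the wild type libraries. Gm15564 made up 0.740% and 0.143% of the same Rad21 KO libraries, against 0.0687% and 0.0961% of the wild type libraries. The source of the reads counted for Lars2 and Gm15564 was not tested. A count of 3 in a library, used as the floor, corresponded to 0.410 to 0.417 CPM.

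The labelled cell type was checked against defining genes. All 11 markers of double-positive cells were well above the floor, with Cd4 at 995 and 870 CPM in the Rad21 KO libraries, against 1454 and 1144 CPM in the wild type libraries. Of these 11 markers, 4 were called, all lower in the knockout, where 5.17% of all tested genes were lower. The 4 were the recombinase genes Rag1 (log2 fold change -0.73) and Rag2 (-0.79), the terminal transferase Dntt (-0.63) and the selection regulator Themis (-0.96). The calls of Rag1 and Dntt were lost without Rad21 KO replicate 2 (-0.61 and -0.51) or wild type replicate 1 (-0.66 and -0.54), so either omission left a count of 2. Summed over the list, double-positive markers ran from 10645 to 11982 CPM in Rad21 KO and from 15288 to 16705 CPM in wild type.

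Loss of Rad21 went with a much higher Ccr7 level, a higher Klf2 level and a much lower Cd44 level, while the cortical receptors Ccr9 and Cxcr4 did not pass the test. Of the 9 genes, 8 were abundant enough to test. Ccr7 and Klf2 were higher, Cd44 was lower and 5 did not pass the edgeR quasi-likelihood test at an adjusted p of 0.05, where 7.6% of the 12003 tested genes were higher, 5.17% lower and 12.8% called in all. The groups did not overlap in 7 of the 8 tested genes, with Rad21 KO higher in 4 and lower in 3, where 58.9% of all tested genes did so. The median log2 fold change of the 8 genes was 0.27, against -0.01 over all tested genes. The 9 genes were picked with earlier results of these data known, so these counts describe them and are not evidence about migration genes as a class.

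**Figure D1:**
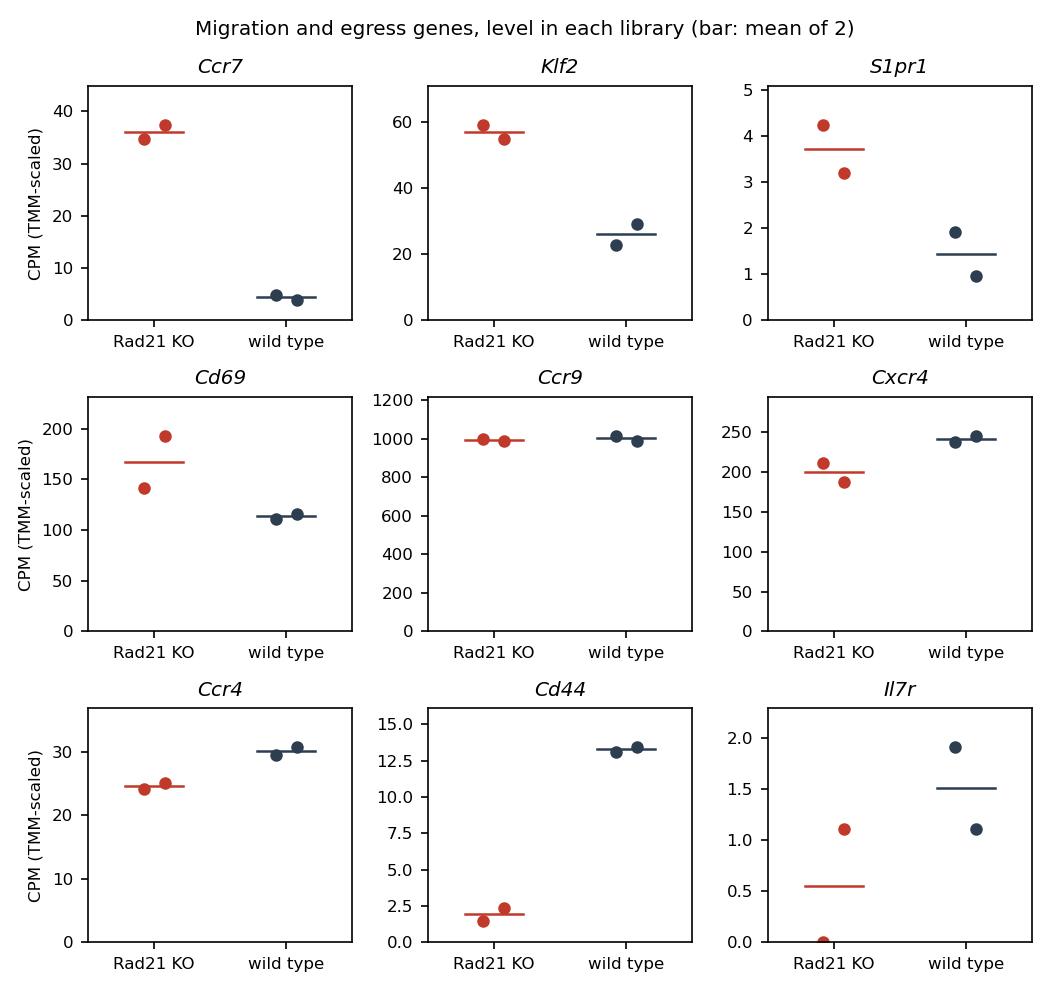
Level of each of the 9 genes in CPM on a linear axis from 0, with 1 dot per library and a bar at the mean of the 2 libraries, Rad21 KO on the left and wild type on the right of each panel. Ccr7 and Klf2 lie apart upward and Cd44 downward, Ccr9 is near 1000 CPM in all 4 libraries, and Il7r has a Rad21 KO library at 0.

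Ccr7 encodes the receptor that brings selected thymocytes into the medulla and T cells into lymph nodes. Its level was 34.8 and 37.4 CPM in the Rad21 KO libraries, from 254 and 269 counts, and 4.92 and 3.88 CPM in the wild type libraries, from 36 and 28 counts. Both knockout libraries were far above both wild type libraries, and the 2 values within each genotype lay close together. Ccr7 averaged 36.1 ± 1.85 CPM in Rad21 KO and 4.40 ± 0.736 CPM in wild type (SD, n = 2 each). The rise was 8.17-fold with a 95% interval of 5.90 to 11.3 (log2 fold change 3.03, SE 0.20, edgeR quasi-likelihood adjusted p = 0.000882). By size of rise, Ccr7 ranked 40 among the 12003 tested genes. In bulk RNA a change in how many cells carry a transcript and a change in its amount per cell cannot be told apart, which holds for every gene here.

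Ccr7 is also a marker of cells past the double-positive stage, so other genes of mature thymocytes and naive T cells were set beside it. Of 12 such genes, none of them among the 9, 9 were tested, 2 were higher and 2 lower. Over all tested genes, 7.6% were higher and 5.17% lower. The gut-homing integrin chain Itgb7 rose (log2 fold change 2.17, SE 0.14), as did the IL-6 receptor gene Il6ra (1.90). The membrane protein gene Ms4a6b fell (-1.88). Il6ra lost its call when any single library was left out (1.58 to 2.18). The 11 genes of the list reported here summed to 171 and 175 CPM in Rad21 KO and 146 and 151 CPM in wild type. The helper-lineage factor Zbtb7b had 11 and 3 counts in the Rad21 KO libraries, against 2 and 11 in the wild type libraries, and Cd40lg 0 and 1 counts against 2 and 3. The part of mature cells in the Ccr7 difference was not tested.

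Klf2, the zinc finger factor that switches on the egress program, was the second of the 9 genes to rise. It stood at 59.0 and 54.9 CPM in the Rad21 KO libraries, against 22.7 and 29.2 CPM in the wild type libraries. The lowest knockout value was above the highest wild type value. The rise was 2.19-fold with a 95% interval of 1.69 to 2.85 (log2 fold change 1.13, SE 0.16, edgeR quasi-likelihood adjusted p = 0.00676).

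The Klf2 promoter is shown because MEF2 factors are known to activate Klf2 through a site close to its start, and because members of that family moved in these data. The 250 bases before the start (RefSeq, GRCm38.p6, chr8:72318812-72319061, plus strand) are printed with capitals for 3 motifs: the MEF2 motif (CTA and TAG separated by any 4 bases), the KLF-type CACCC and the GC box GGGCGG, each searched on both strands.
Klf2: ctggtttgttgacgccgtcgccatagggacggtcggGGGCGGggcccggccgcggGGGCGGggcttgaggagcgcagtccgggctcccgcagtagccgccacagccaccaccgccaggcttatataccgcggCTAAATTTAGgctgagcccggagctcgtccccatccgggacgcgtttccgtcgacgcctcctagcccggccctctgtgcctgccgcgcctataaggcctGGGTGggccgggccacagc
The MEF2 match, CTAAATTTAG, runs from position -118 to -109 relative to the start. Such a match is found in 3.2% of 32851 RefSeq promoter windows searched over the same 250 bases before the start, against 52.0% for the KLF motif and 32.7% for the GC box. The FOXO motif GTAAACA, present in 3.17% of windows, has no match in the Klf2 window. Promoter windows were matched for 6 of the 9 genes (Ccr9, Ccr4, Cxcr4, Cd44, Klf2 and Il7r), and the MEF2 match occurs in Klf2 alone among them. A match in letters is a description of the sequence and does not show binding.

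Regulators and partners of Klf2 moved in both directions. Of 12 tested, 4 were higher and 2 lower, where 7.6% and 5.17% of all tested genes were. Mef2d, a MEF2 factor, stood at 753 and 747 CPM in the Rad21 KO libraries, against 391 and 366 CPM in the wild type libraries, a log2 fold change of 0.99 (SE 0.10, edgeR quasi-likelihood adjusted p = 0.00259). Its relative Mef2a, chosen after its values were seen, went the other way, at 199 and 202 CPM in Rad21 KO against 329 and 254 CPM in wild type (log2 fold change -0.54). The call of Mef2a was lost without either Rad21 KO replicate (-0.52 and -0.53) or wild type replicate 1 (-0.34).

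Foxo1, which activates Klf2, Ccr7 and Il7r in T cells, had 121 and 160 CPM in the Rad21 KO libraries, against 34.3 and 59.8 CPM in the wild type libraries. The groups did not overlap, although the replicates of each genotype were spread (log2 fold change 1.58, SE 0.26, edgeR quasi-likelihood adjusted p = 0.0118). Its relative Foxo3, chosen after its values were seen, rose by 0.70. Of these 3 targets, Ccr7 and Klf2 were higher in the knockout and Il7r was too scarce to test. Itgb7, whose surface level depends on KLF2 in T cells, was at 61.9 and 64.2 CPM in Rad21 KO and at 14.5 and 13.6 CPM in wild type. Without the filter on low counts, the calls of Foxo1 and Mef2a were lost.

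**Figure D2:**
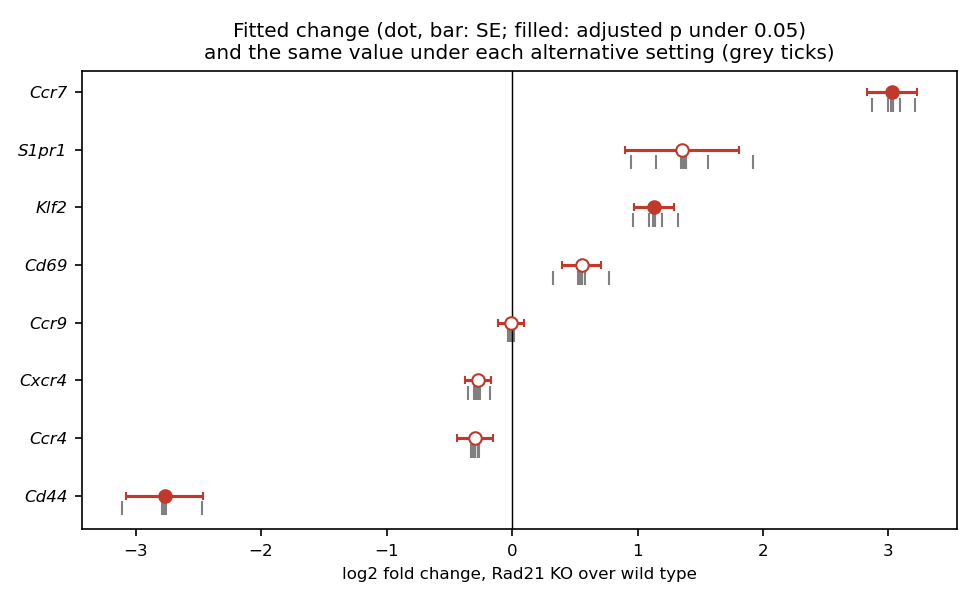
Fitted log2 fold change of Rad21 KO over wild type for the 8 tested genes, with bars for 1 SE, filled dots for an adjusted p under 0.05 and grey ticks for the value under each alternative setting. Ccr7, Klf2 and Cd44 keep their side of 0 at every tick, and the ticks of S1pr1 and Cd69 are spread most among the other genes.

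S1pr1, the exit receptor and a direct target of KLF2, was scarce. It had 31 and 23 counts in the Rad21 KO libraries, against 14 and 7 in the wild type libraries, or 4.24 and 3.20 CPM against 1.91 and 0.969 CPM. Both knockout values were above both wild type values, but the change did not pass the test (log2 fold change 1.36, SE 0.45, edgeR quasi-likelihood adjusted p = 0.100). The unadjusted 95% interval of the fold was 1.22 to 5.38. Over the alternative settings the log2 fold change ran from 0.95, without wild type replicate 2, to 1.92, without wild type replicate 1, and S1pr1 was called in none of the 11.

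Cd69, an early activation marker whose protein holds S1PR1 inside the cell, stood at 141 and 193 CPM in the Rad21 KO libraries, against 111 and 116 CPM in the wild type libraries. The groups did not overlap, with the knockout values farther apart than the wild type ones. Its log2 fold change was 0.56 (SE 0.15, edgeR quasi-likelihood adjusted p = 0.0588). The call of Cd69 differed with the knockout library left out: without Rad21 KO replicate 1 it was called (0.77, adjusted p = 0.00779 in the same test), without Rad21 KO replicate 2 it was not (0.33, adjusted p = 0.135). DESeq2 also called it (0.56, adjusted p = 0.0192), and over the 11 alternatives the adjusted p ran from 0.00779 to 0.168.

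The other genes of sphingosine 1-phosphate handling were mostly higher in the knockout without passing the test. Of 10 tested, 1 was called, as higher, where 7.6% of all tested genes were. The median of the 10 was 0.64 on the log2 fold scale. In 8 of the 10 both knockout values lay above both wild type values, where 29.7% of all tested genes did so. This list too was chosen with earlier results of these data known, so its counts describe its own genes only. The called gene was Plpp3, a membrane phosphatase that degrades the lipid, at 17 and 17 counts in the Rad21 KO libraries, against 4 and 5 in the wild type libraries (log2 fold change 1.89). Leaving out any single library ended its call (1.73 to 2.06). Chosen after their values were seen, the lipid kinase gene Sphk1 differed by 1.17 on the log2 scale (SE 0.38), the lyase Sgpl1, which keeps the lipid low inside the thymus, 0.90 (SE 0.27), and the receptor S1pr2 0.86 (SE 0.26). Their edgeR quasi-likelihood adjusted p-values were 0.0894, 0.0714 and 0.0721.

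The cortical receptor Ccr9 did not pass the test and had nearly equal levels in all 4 libraries. It had 1000.2 and 989 CPM in the Rad21 KO libraries, against 1013 and 989.5 CPM in the wild type libraries. The log2 fold change was -0.01 (SE 0.11), and the 95% interval of the fold was 0.836 to 1.18, so a change of the size seen in Ccr7 or Klf2 lies outside it. The span of Ccr9 overlaps that of Gm17021 in RefSeq, and no strand use is stated, so reads of the pair may be shared.

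Cxcr4, the CXCL12 receptor that also supports the earlier step of β-selection, had 211 and 188 CPM in the Rad21 KO libraries, against 237 and 245 CPM in the wild type libraries. Both knockout values were the lower ones, and the difference was not past the threshold (log2 fold change -0.27, SE 0.10, edgeR quasi-likelihood adjusted p = 0.131). Ccr4, which responds to CCL17 and CCL22 after positive selection, had 24.1 and 25.0 CPM in Rad21 KO and 29.5 and 30.7 CPM in wild type. Here too the groups did not overlap and the change did not pass (log2 fold change -0.29, SE 0.14, adjusted p = 0.226 by the same test). The medullary receptors Ccr7 and Ccr4 thus had different outcomes, with intervals of 5.90 to 11.3 for the fold of Ccr7 and 0.644 to 1.03 for that of Ccr4.

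Among the other chemokine receptors, 14 of 19 were analysed and 8 were abundant enough to test. Of these, 2 were called, both as higher, where 7.6% of all tested genes were. Both called receptors were scarce. Ccrl2, an atypical receptor that binds the chemoattractant chemerin, had 16 and 17 counts in the Rad21 KO libraries, against 2 and 0 in the wild type libraries. That is a 16.5-fold rise, and its 95% counting interval was 4.23 to 142. Cxcr5, which guides lymphocytes into follicles, had 23 and 14 counts in Rad21 KO and 4 and 2 in wild type, a log2 fold change of 2.58 (SE 0.58). The call of Ccrl2 was lost without Rad21 KO replicate 2 (3.85 on the log2 scale) or wild type replicate 2 (2.98), and that of Cxcr5 without either wild type replicate (3.12 and 2.18) or Rad21 KO replicate 1 (2.20). DESeq2 called neither Ccrl2 nor Cxcr5 (adjusted p = 0.0576 and 0.125), and the edgeR fit with no filter on low counts did not either (adjusted p = 0.0969 and 0.0997).

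Of the chemokines themselves, 8 of 10 were analysed, 3 were tested and 1 was called, where 12.8% of all tested genes were. Cxcl10, an interferon-induced ligand of CXCR3, had 32 and 42 counts in the Rad21 KO libraries, against 1 and 0 in the wild type libraries (edgeR quasi-likelihood adjusted p = 0.00433). That is a 74.2-fold rise, with a 95% counting interval of 12.9 to 2970. The cortical ligands were near the floor in these sorted cells, with Cxcl12 at 0 and 0 counts in Rad21 KO and 1 and 2 in wild type, and Ccl25 at 11 and 6 counts against 11 and 20. Ccl25 was tested and had a log2 fold change of -0.86 (SE 0.53).

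Cd44, the hyaluronan receptor that is high in the earliest thymocytes and again in activated T cells, was the gene of the 9 that fell. It had 11 and 17 counts in the Rad21 KO libraries, against 96 and 97 in the wild type libraries, or 1.51 and 2.36 CPM against 13.1 and 13.4 CPM. The wild type libraries were almost equal and the knockout libraries both far below them. The fall was 6.82-fold (log2 fold change -2.77, SE 0.31, edgeR quasi-likelihood adjusted p = 0.00327), with a 95% interval of -3.49 to -2.05 on the log2 scale. By size of fall, Cd44 ranked 24 among the 12003 tested genes. The span of Cd44 overlaps that of Gm23731 in RefSeq. The table does not separate the isoforms of Cd44, a gene known for extensive alternative splicing.

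The Cd44 promoter is also shown, since Cd44 fell in the knockout. The stretch covers the 246 bases that precede the first annotated base (RefSeq, GRCm38.p6, chr2:102901670-102901915, minus strand), and it has no letters in capitals, since the window holds no match to the MEF2, KLF, GC box or FOXO motif.
Cd44: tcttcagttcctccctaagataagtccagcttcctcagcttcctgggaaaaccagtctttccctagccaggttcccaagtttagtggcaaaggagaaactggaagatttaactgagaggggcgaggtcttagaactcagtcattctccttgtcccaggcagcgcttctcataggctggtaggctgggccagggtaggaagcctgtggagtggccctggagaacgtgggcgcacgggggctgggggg
In the other promoter windows searched, the KLF motif occurs once each in Ccr9, Ccr4 and Cxcr4, the GC box 3 times in Cxcr4, and none of the 4 motifs in Il7r. Ccr7, which rose, had no matched window, and a link of these motifs to the direction of change was not tested.

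Cd44 marks some of the rarer cells that a double-positive sort can hold, so their genes were set beside it. Genes of double-negative thymocytes summed to 168 and 141 CPM in Rad21 KO and 71.6 and 84.5 CPM in wild type. Most of that sum was Notch3, and the other 8 genes summed to 25.7 and 26.7 CPM in Rad21 KO and 21.9 and 24.7 CPM in wild type. Of 3 tested, 2 were called, both as higher, where 7.6% of all tested genes were. The 2 were the Notch target Hes1 and Notch3 (log2 fold change 1.23). Hes1 had 36 and 23 counts in Rad21 KO, against 3 and 0 in wild type, a 19.7-fold rise with a 95% counting interval of 6.43 to 98.4. Of the defining early markers, Kit had 2 and 12 counts in Rad21 KO and 7 and 7 in wild type, and Il2ra a log2 fold change of -0.03. Myeloid and dendritic genes summed to 26.7 and 45.7 CPM in Rad21 KO and 48.8 and 50.5 CPM in wild type, with Itgam lower (-1.29, a call lost without wild type replicate 2 at -1.05) and 6 of 7 not past the threshold. Without Itgam, the sums of the genotypes overlapped, at 18.3 and 37.1 CPM in Rad21 KO and 31.3 and 26.6 CPM in wild type. B cell genes summed to 19.2 and 17.5 CPM in Rad21 KO and 25.6 and 21.5 CPM in wild type, with Ms4a1 and Pax5 under 3 counts in every library. Of 2 B cell genes tested, 0 were called by edgeR, DESeq2 or limma-voom and 0 had an unadjusted edgeR p under 0.05.

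NK and γδ T cell genes, some of which activated T cells share, summed to 18.2 and 24.5 CPM in Rad21 KO and 15.4 and 13.6 CPM in wild type, and without Gzma to 8.35 and 8.62 CPM in Rad21 KO and 9.15 and 5.96 CPM in wild type. Of 3 tested, 0 were called by edgeR, DESeq2 or limma-voom, 2 had an unadjusted edgeR p under 0.05, and 1 was called higher without Rad21 KO replicate 1. The genes Nkg7 and Klrd1 were under 3 counts in every library. Epithelial and stromal genes had 1 higher, the adhesion molecule Epcam (3.08), and 1 lower, Pecam1 (-0.58), of 4 tested. Over all tested genes, 7.6% were higher and 5.17% lower. The epithelial and stromal list summed to 121 and 133 CPM in Rad21 KO and 169 and 166 CPM in wild type. Most of that sum was Pecam1, and the other 8 genes summed to 24.8 and 30.2 CPM in Rad21 KO, above the 18.3 and 19.0 CPM in wild type. Of the defining genes, Psmb11, a proteasome subunit of cortical epithelium, had 109 and 117 counts in Rad21 KO and 110 and 112 in wild type (log2 fold change 0.03, SE 0.18). Foxn1, Pdgfra and Cdh5 were under 3 counts in every library, and Pdgfra and Cdh5 were at 0. Erythroid genes summed to 2.05 and 4.31 CPM in Rad21 KO and 3.28 and 3.05 CPM in wild type, with 0 of 2 tested called by edgeR, DESeq2 or limma-voom and 0 at an unadjusted edgeR p under 0.05. The part of these cells in the Cd44 difference was not tested.

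Il7r, the IL-7 receptor chain that is silent at the double-positive stage and returns in selected cells, was at the limit of detection. It had 0 and 8 counts in the Rad21 KO libraries, against 14 and 8 in the wild type libraries. The groups overlapped. For the 0 counts of Rad21 KO replicate 1, the exact 95% Poisson interval reached up to 3.69 counts, above the floor of 3. The gene missed the filter on low counts. In a fit with no filter its log2 fold change was -1.43 (SE 1.13, edgeR quasi-likelihood adjusted p = 0.545). The value ran from -0.43 without Rad21 KO replicate 1 (adjusted p = 0.735) to -6.47 without Rad21 KO replicate 2 (adjusted p = 0.0533), where the only knockout library is the one at 0 counts and the fitted value is no bound.

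The other parts of the IL-7 receptor pathway were mostly not past the threshold, with 1 of 13 tested genes called, as higher. Over all tested genes, 12.8% were called and 7.6% were higher. The called gene, the feedback inhibitor Socs1, had 174 and 167 CPM in Rad21 KO and 136 and 115 CPM in wild type (log2 fold change 0.44, SE 0.12). The call ended without wild type replicate 2 (0.32) or either Rad21 KO replicate (0.42 and 0.49). Chosen after their values were seen, the shared cytokine receptor chain Il2rg differed by -0.10 on the log2 scale (SE 0.09), the kinase Jak3 0.84 (SE 0.23, edgeR quasi-likelihood adjusted p = 0.0593) and the survival gene Bcl2, a known output of IL-7 signalling, -0.29 (SE 0.20).

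**Figure D3:**
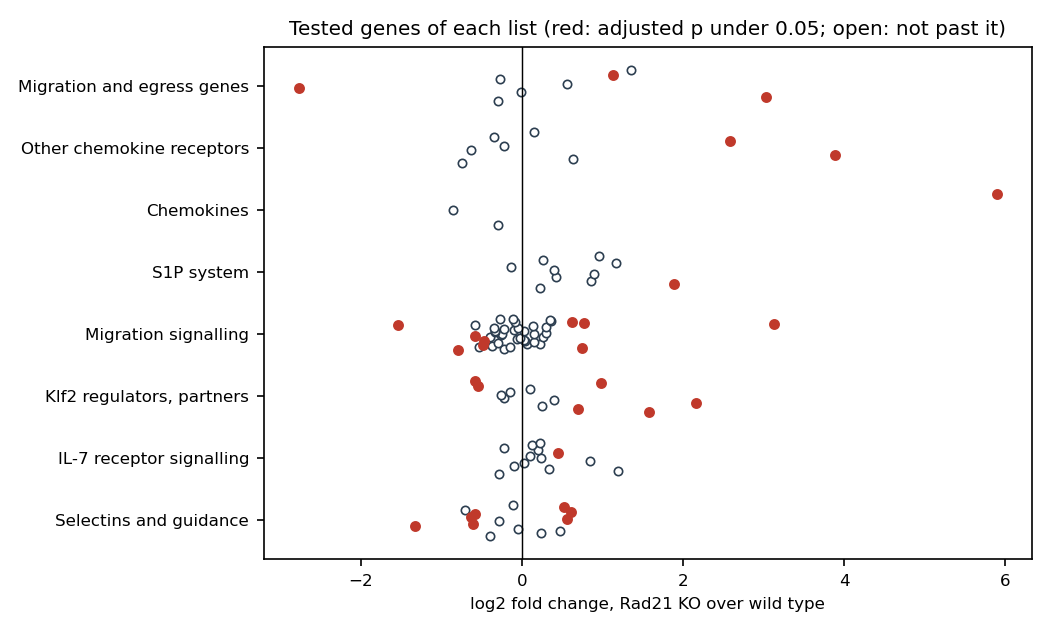
Log2 fold change of Rad21 KO over wild type for the tested genes of each list, with 1 dot per gene, red past an adjusted p of 0.05 and open otherwise; vertical spread within a list only separates the dots. The 42 migration signalling genes lie mostly close to 0, and the called chemokine receptors and the chemokine Cxcl10 lie far to the right.

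Behind the receptors, most signalling genes of migration did not pass the test. All 42 were tested, 4 were higher, 5 lower and 33 not past the threshold, where 12.8% of all tested genes were called. Their median on the log2 fold scale was -0.09, against -0.01 over all tested genes. The regulators of G protein signalling, which shorten chemokine responses, did not move as a group. Rgs16 had 7.25 and 12.2 CPM in the Rad21 KO libraries, against 0.820 and 1.38 CPM in the wild type libraries, while Rgs10 had 16.6 and 14.6 CPM in Rad21 KO and 57.4 and 32.8 CPM in wild type. Their log2 fold changes were 3.13 (SE 0.44, adjusted p = 0.00678) and -1.53 (SE 0.27, adjusted p = 0.0150) in the edgeR quasi-likelihood test. Apbb1ip, the RIAM adaptor that links RAP1 to integrin activation, fell to 78.2 and 86.2 CPM in Rad21 KO, against 139 and 145 CPM in wild type (log2 fold change -0.79, SE 0.11).

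The other called genes of that list were chosen after their values were seen. Higher were Rgs2 (0.77), the β-arrestin gene Arrb1 (0.75) and Rhoh, a GTPase of blood cells (0.62). Lower were Grk2, a kinase that desensitizes chemokine receptors and S1PR1 (-0.58), the integrin activator kindlin-3 gene Fermt3 (-0.47) and the adaptor Crk (-0.48). Rhoh lost its call without wild type replicate 2 (0.46), Grk2 and Fermt3 without Rad21 KO replicate 2 (-0.40 and -0.38) or wild type replicate 1 (-0.46 and -0.39), and Crk when any single library was left out (-0.42 to -0.54). The main coupling components were not past the threshold, among them the G protein subunit gene Gnai2 (-0.06), the Rac activator Dock2 (0.22), Rac2 (-0.22) and the actin regulator Coro1a (-0.37).

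**Figure D4:**
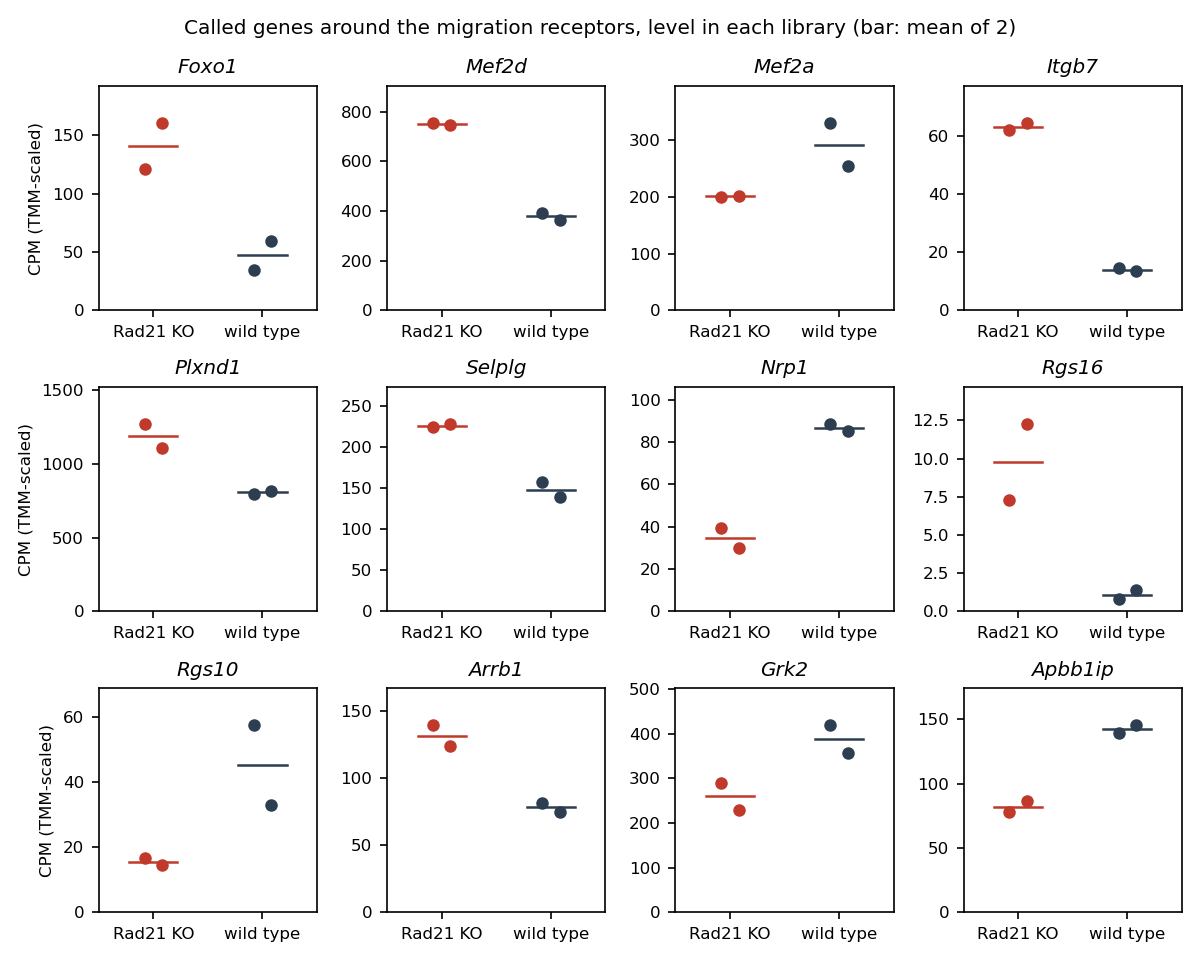
Level in CPM, on linear axes from 0, of 12 called genes from the lists around the migration receptors, with 1 dot per library and a bar at the mean of 2, Rad21 KO left and wild type right. The groups do not overlap in any panel, with Foxo1, Mef2d, Itgb7, Plxnd1, Selplg, Rgs16 and Arrb1 higher in Rad21 KO and Mef2a, Nrp1, Rgs10, Grk2 and Apbb1ip lower.

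Selectins, their ligands and guidance receptors were also split. Of 14 tested, 3 were higher and 4 lower, where 7.6% and 5.17% of all tested genes were. The guidance coreceptor Nrp1 fell to 39.3 and 29.9 CPM in the Rad21 KO libraries, against 88.3 and 85.0 CPM in the wild type libraries (log2 fold change -1.32, SE 0.16, edgeR quasi-likelihood adjusted p = 0.00374). The prostaglandin receptor Ptger4 fell by 0.63 on the log2 scale, and Selplg, the P-selectin ligand used by progenitors to enter the thymus, rose by 0.61. Ptger4 lost its call without Rad21 KO replicate 1 (-0.55) and Selplg without wild type replicate 2 (0.51).

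Other called genes of the list, chosen after their values were seen, were Plxnd1 (0.56), Sema4d (0.52) and P2ry10 (-0.60). Plexin D1, which guides selected thymocytes toward the medulla, had 1267 and 1105 CPM in Rad21 KO and 797 and 818 CPM in wild type, and lost its call without either wild type replicate (0.53 and 0.57) or Rad21 KO replicate 1 (0.46). Sema4d lost its call without wild type replicate 1 (0.45) and P2ry10 without Rad21 KO replicate 2 (-0.47). Leaving out either wild type replicate left 1 higher and 3 lower genes in this list.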

How the data were processed

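The authors deposited 1 table of count equivalents for Ensembl genes, taken here as estimated counts; every value is whole, so rounding changed none. Per the submitters' processing notes, reads were placed on mm9. No source used here names the aligner, the counting program or the use of strand. Knockout columns are headed Rad1KO, and the remainder of each heading matched 1 sample. Of 17849 gene identifiers, 17342 had a symbol. Counts were filtered with filterByExpr, scaled by TMM and tested with the quasi-likelihood test of edgeR 4.0.16 in R 4.3.3, with no block and Benjamini-Hochberg adjustment over 12003 genes. DESeq2 1.42.0 and limma 3.58.1 served as alternatives. The procedure was tested on simulated data. On raw counts, with Lars2 kept and no TMM scaling, replicates differed beyond sampling noise. The chi-square per degree of freedom was 85.9 in the Rad21 KO pair and 7.43 in the wild type pair. The value of the Rad21 KO pair thus includes the unequal Lars2 share of its libraries, and the spread left after scaling was not tested this way. Intervals from counts cover counting error only.

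The 9 genes and all lists were chosen with earlier results of these data known. Named by rule are the 9 genes, Rad21, genes taking over 10% of a library, and up to 3 called genes of each list with the largest change. Markers of cell types are named as checks. Some genes that the list counts include are not reported by name here. The ChIP-seq peak lists, on mm9, were not used here, since the gene positions at hand are on GRCm38. Hi-C and input samples were not analysed here.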

Additional observations from a re-analysis of the deposited data

How the results depend on the processing

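The calls of Ccr7, Klf2 and Cd44 were kept under all 11 alternatives: RLE scaling, DESeq2, limma-voom, no low-count filter, at least 1 CPM in 2 libraries, the replicate block, leaving out each library, and leaving out Lars2 and Gm15564. Their log2 fold changes ran from 2.87 to 3.21, from 0.96 to 1.32 and from -3.11 to -2.47. The call of Rad21 was also kept under all 11. Of the 9 genes, 3 or 4 were called under every alternative, and 3 to 4 on leaving out a library. Over all genes, 433 were called with no low-count filter (285 higher and 148 lower, of 17003 tested) against 1533 as reported, and 947 to 1438 on leaving out a library, the lowest without wild type replicate 2; the cause was not tested. With no low-count filter, 2 signalling genes, 1 guidance gene, 3 regulators and partners of Klf2, 2 mature-cell genes and 1 double-positive marker were called, and 0 genes of the sphingosine 1-phosphate and IL-7 receptor lists. On leaving out a library its genotype has a single sample, assumed to vary like the other genotype.

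Replicate numbers are shared between genotypes only as numbers: same-numbered deviations correlated at 0.04 over 12003 genes. With the replicate block 1025 genes were called and 3 of the 9, and Mef2a, Socs1, Plpp3, Ccrl2 and Plxnd1 were among named genes that lost their call. The effect of depth on the calls of scarce genes was not tested.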
